A study of Homo sapiens with 3 samples.

Results

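The DU145 library was compared with the LNCAP library across all genes, with 1 RNA sequencing library on each side. Every gene of the deposited tables was considered, and the 18025 of 58735 genes that reached 1 CPM (counts scaled to a common library total) in at least 1 of the series' 3 libraries were compared. LNCAP, an established human prostate cancer line derived from a lymph node metastasis, was placed by the series design in the androgen-dependent class. DU145, an established line derived from a brain metastasis, was placed in the castration-resistant class, as was PC3, whose library is given beside the others only for reference. All lines were grown at 37 °C and 5% CO2 with 10% serum, and no treatment is named. The labels list several media without assigning them to lines. Each library was made from 4 ug of total RNA, and the labels do not name replicate cultures. Each line comes from 1 tumour and gave 1 library, so the comparison is one of libraries and not of disease classes.

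Luminal cells of the prostate secrete into the gland and respond to androgens, which switch on genes such as the kallikreins. Prostate cancers that progress under androgen deprivation can keep this luminal programme or lose it. Homeobox genes encode transcription factors that set regional identity in the embryo, and adult cells keep part of that pattern.

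The libraries held 15393103 counts for LNCAP, 15878546 for DU145 and 15319045 for PC3, and mitochondrial genes took 7.97%, 5.60% and 4.35% of them. Levels below are CPM after TMM scaling, a method that equalises the bulk of genes between libraries. A fold change is the ratio of scaled counts, and the range in brackets is its exact 95% interval from counting error. The libraries carry no molecular identifiers, reads are therefore not independent molecules, and the intervals cover counting error only. There were no replicates, so no difference here has a replicate check and no p-value is given. Genes are called higher or lower where the log2 ratio after adding 0.5 counts to each side reached 2 in size (4-fold) and the interval left out equality. Where a library had no counts, the fold was computed against 3 counts and is written as "at least". That value is a convention and lies above the near end of the 95% interval, as for the gene SYT4 at 2394-fold against 1947-fold. The labelled tissue was checked against 16 luminal prostate markers, which summed to 8524 CPM in LNCAP, 1716 CPM in DU145 and 1198 CPM in PC3. In DU145 13 of them were lower and none higher, with a median log2 ratio of -8.85, and only KRT8, KRT18 and FOXA1 were not called. Over all 18025 tested genes 25.8% were called, 13.7% higher and 12.1% lower. The DU145 library thus held epithelial keratins and FOXA1 but little of the rest of the luminal programme. Markers of fibroblasts, endothelium and immune cells were low in both libraries. Of 8 fibroblast markers 3 were tested and 1 was lower (summed 36.1 CPM in LNCAP and 10.1 CPM in DU145), of 7 endothelial markers 4 were tested with 1 called each way (11.3 and 2.36 CPM), and of 10 immune markers 3 were tested with 1 called each way (5.69 and 2.43 CPM). Some of these markers, such as LUM, CD3E and MS4A1, had no counts in either library, while others had counts.

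DU145 differed from LNCAP in both directions by similar numbers of genes. Of all tested genes 2473 (13.7%) were higher in DU145 and 2178 (12.1%) lower, together 25.8%, while 9402 (52.2%) lay within 2-fold. The median log2 ratio over all tested genes was -0.0033. Many called genes were all but absent on one side. LNCAP had no counts for 644 of the higher genes, and DU145 had none for 695 of the lower genes. The higher genes took 1.29% of the counts in LNCAP and 13.5% in DU145, while the lower genes took 10.7% and 0.938%. In PC3 the same 2 sets of genes took 10.7% and 2.62%.

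**Figure D1:**
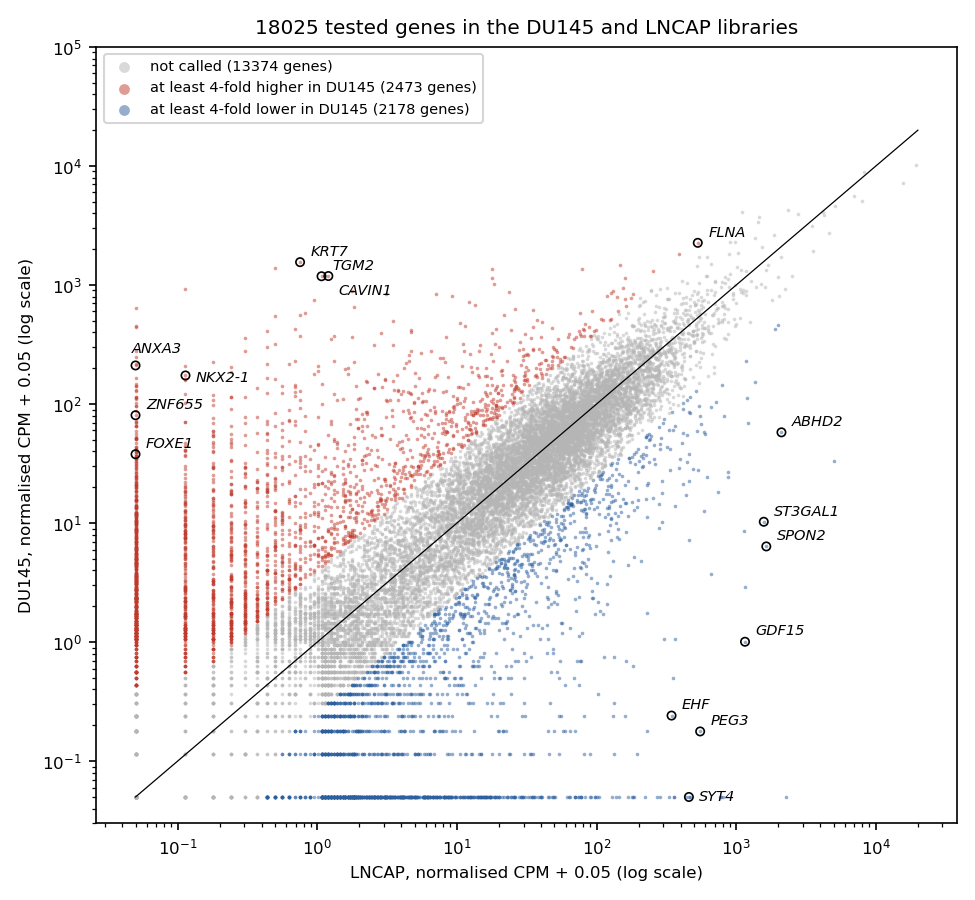
Normalised CPM plus 0.05 in LNCAP (horizontal, log scale) and DU145 (vertical, log scale) for the 18025 tested genes, with 1 library a line and equality on the diagonal. Red points are the 2473 genes called higher in DU145, blue points the 2178 called lower, and points along the left and lower edges had no counts in 1 library, among them ANXA3 and SYT4.

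Genes of the cell membrane, matrix and cytoskeleton were among those higher in DU145 with large ratios. KRT7, a keratin of simple epithelia on chromosome 12 (GRCh38, 52232520 to 52252186), stood at 0.704 CPM in LNCAP, 1558 CPM in DU145 and 168 CPM in PC3, which was 2214-fold higher in DU145 (1237 to 4435). TGM2, which encodes a protein-crosslinking transglutaminase on chromosome 20 (38127387 to 38166578), stood at 1.02, 1186 and 45.1 CPM in LNCAP, DU145 and PC3 and was 1158-fold higher (713 to 2027). ANXA3, an annexin gene on chromosome 4 (78551519 to 78610451), had no counts in LNCAP, 211 CPM in DU145 and 98.3 CPM in PC3, so it was at least 1100-fold higher. In each of these 3 genes LNCAP was near or at 0 and DU145 was the highest of the libraries. EFEMP1, which encodes a matrix glycoprotein, was at least 870-fold higher (0, 167 and 2.16 CPM). COCH, a gene for another secreted matrix protein, was at least 671-fold higher (0, 129 and 3.53 CPM), though 31% of its exon bases overlap another gene model. S100A10, which encodes the calcium-independent partner of annexin A2, was 1071-fold higher (492 to 2919; 0.384, 411 and 139 CPM). ABCC3, an organic anion export pump gene, was 1765-fold higher from 2 LNCAP counts (488 to 14583; 0.128, 226 and 127 CPM).

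Caveolae are small pits of the plasma membrane built from caveolins and cavins, and genes of both kinds were near 0 in LNCAP and high in DU145. CAVIN1, which encodes the cavin needed to form caveolae, stood at 1.15 CPM in LNCAP and 1191 CPM in DU145 and had no counts in PC3. It was 1034-fold higher in DU145 (654 to 1745), from chromosome 17 (42402452 to 42423517). CAV2, a caveolin gene, was 3270-fold higher from 1 LNCAP count (587 to 129214), with 209 CPM in DU145 and 47.6 CPM in PC3. The 3 next genes were looked up after these values were seen. CAVIN2 was 772-fold higher from 2 LNCAP counts (213 to 6382), with 98.8 CPM in DU145 and 0.0654 CPM in PC3. CAVIN3 stood at 27.3 CPM in DU145 without a count in the other libraries, at least 142-fold higher. EHD2, which encodes an ATPase at the neck of caveolae, was 1063-fold higher from 3 LNCAP counts (363 to 5157), with 204 CPM in DU145 and 3.14 CPM in PC3.

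Among the higher genes with high CPM in DU145 were cytoskeletal and adhesion genes that LNCAP also expressed. FLNA, which encodes the actin crosslinker filamin A, stood at 531 CPM in LNCAP, 2263 CPM in DU145 and 2493 CPM in PC3, which was 4.26-fold higher in DU145 (4.16 to 4.37). The integrin gene ITGB1 was 4.65-fold higher (4.52 to 4.78; 390, 1814 and 1328 CPM), and ASPH, a gene for an aspartyl hydroxylase, 10.1-fold higher (9.66 to 10.5; 147, 1486 and 1031 CPM). MYOF, the membrane repair gene myoferlin, was 76.0-fold higher (67.6 to 85.8; 17.9, 1362 and 1009 CPM). PC3 lay close to DU145 in these 4 genes. FTL was different in that PC3 lay close to LNCAP. FTL, the ferritin light chain gene, was 5.22-fold higher (5.04 to 5.40; 252, 1317 and 325 CPM in LNCAP, DU145 and PC3), with reads that pseudogene copies could share.

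The counts of list members below stand against 13.7% higher and 12.1% lower over all tested genes. Of 30 listed actin, myosin and tropomyosin genes 28 were tested, 12 were higher in DU145 and 1 lower, with a median log2 ratio of 1.79. FLNC, which encodes filamin C, was 757-fold higher (433 to 1465; 0.768, 581 and 273 CPM in LNCAP, DU145 and PC3). CNN3, a calponin gene, was 564-fold higher (259 to 1538; 0.384, 217 and 90.02 CPM), and FHL1, a LIM domain gene, at least 270-fold higher (0, 51.8 and 91.7 CPM). The myosin light chain gene MYL9 was 127-fold higher (85.5 to 196), with 202 CPM in DU145 against 10.9 CPM in PC3. CALD1, which encodes the actin-binding protein caldesmon, went the other way at 5.61-fold lower (5.25 to 6.003; 366, 65.2 and 75.04 CPM). The list's summed level was 5274 CPM in LNCAP and 14016 CPM in DU145.

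Integrins bind cells to matrix as pairs of an alpha and a beta chain, and 6 of the 14 tested integrin genes (19 listed) were higher in DU145 and none lower (median 1.96). ITGA3, the alpha chain of a laminin receptor, was 65.1-fold higher (57.8 to 73.5; 17.7, 1153 and 1312 CPM in LNCAP, DU145 and PC3). ITGB2, the beta chain of leukocyte integrins, was 58.8-fold higher (37.4 to 98.0; 1.22, 71.4 and 6.35 CPM). ITGA5, the alpha chain of the fibronectin receptor, was 4.41-fold higher (3.95 to 4.92; 25.7, 113 and 31.1 CPM). Laminins are trimers of the basement membrane, and 6 of 11 laminin genes were higher and 1 lower (median 2.65, or 2.74 with genes lacking counts at their bound). LAMB3, the beta chain of an epithelial laminin, was 24.3-fold higher (22.0 to 26.9), while LAMA3, the alpha chain of that trimer, was not called (591 CPM in LNCAP and 488 CPM in DU145). LAMC1, a gamma chain of many laminins, was 4.47-fold lower (4.36 to 4.60; 1903, 425 and 154 CPM). The laminin genes thus differed by chain, and their summed level was 3057 CPM in LNCAP and 2718 CPM in DU145.

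Collagen genes went both ways, with 9 of 21 tested genes (22 listed) higher and 7 lower (median 1.23, or 1.32 with bounds). The basement membrane collagens of type IV divided by their gene pairs. COL4A1 was at least 118-fold higher (0, 22.7 and 63.6 CPM) and COL4A2, its neighbour, 32.1-fold higher (20.8 to 52.1; 1.34, 43.1 and 136 CPM). COL4A3 and COL4A4 were 6.46-fold (3.85 to 11.5) and 27.7-fold higher (14.4 to 61.3) in DU145 and stood under 0.2 CPM in PC3. COL4A5 was 27.4-fold lower (21.8 to 35.01; 131, 4.79 and 97.9 CPM), and COL4A6, beside it on chromosome X, was 28.4-fold lower from 3 DU145 counts (9.39 to 140). COL17A1, a hemidesmosome collagen, was 17.6-fold higher (11.1 to 29.7), with 21.4 CPM in DU145 and 0.589 CPM in PC3.

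Keratins and desmosome genes, which hold epithelial cells together, showed mixed changes. Of 15 listed keratin genes 11 were tested, with 4 higher and 3 lower (median 1.10). By FPKM, which allows for gene length, KRT7 was the highest of the tested keratin genes in DU145 at 380 FPKM, against 151 for KRT8 and 154 for KRT18, and in LNCAP it stood at 0.169 FPKM against 63.5 and 70.6. KRT80 was 29.02-fold higher (24.9 to 33.98; 11.002, 319 and 135 CPM in LNCAP, DU145 and PC3). KRT81 was at least 47.9-fold higher (0, 9.19 and 2240 CPM), but it shares sequence with KRT86. The lower genes were KRT20 (at least 34.7-fold), KRT16 (at least 26.1-fold) and KRT6B (at least 23.1-fold), and KRT6B shares most of its sequence with KRT6C. Among 14 tested desmosome and plakin genes (17 listed), DST and PPL were higher and DSC1 lower (median 0.19). DST, which encodes the linker protein dystonin, stood at 18.4, 1027 and 342 CPM and was 55.7-fold higher (49.6 to 62.8).

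Mucin and glycosyltransferase genes were called in equal numbers each way, 6 higher and 6 lower of 25 tested (27 listed, median 0.17). MUC1, a transmembrane mucin gene, was 182-fold higher in DU145 (98.5 to 379; 0.640, 116 and 5.56 CPM in LNCAP, DU145 and PC3). MUC16, which encodes the antigen CA125, was at least 80.5-fold higher and had no counts in LNCAP or PC3. ST3GAL1, a sialyltransferase gene that caps core O-glycans, stood at 1576, 10.2 and 767 CPM and was 154-fold lower (132 to 181). ST6GALNAC1, which adds sialic acid to the first sugar of O-glycans, was at least 404-fold lower (77.3, 0 and 0.262 CPM). Some of the polypeptide N-acetylgalactosaminyltransferases, which start O-glycans, also differed: GALNT14 was 86.5-fold higher (43.7 to 201), GALNT6 151-fold higher from 2 LNCAP counts (41.5 to 1254) and GALNT3 6.99-fold lower (5.66 to 8.70).

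**Figure D2:**
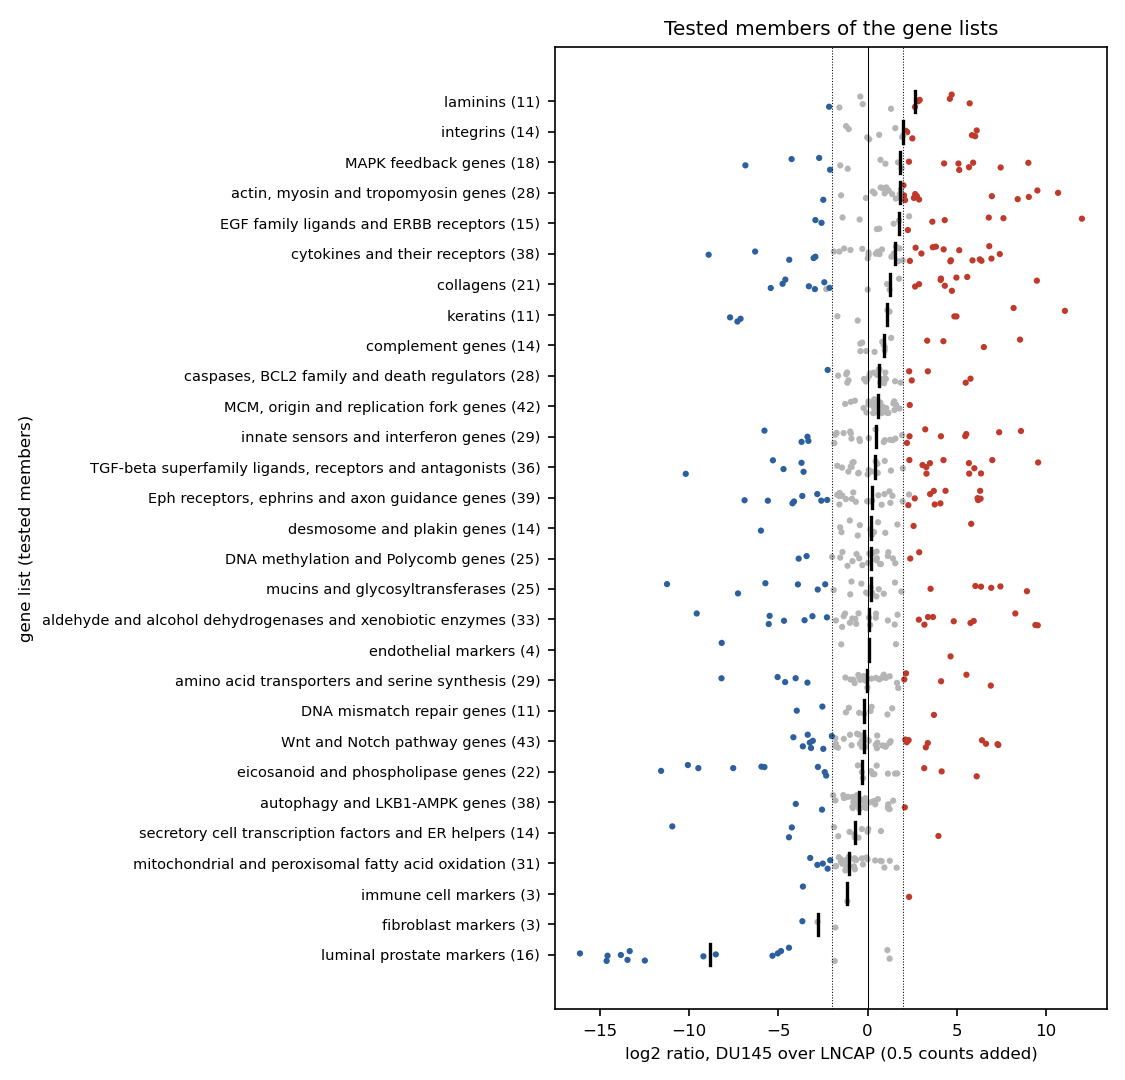
Log2 ratio of DU145 over LNCAP (horizontal, 0.5 counts added) for each tested member of the gene lists shown, 1 list a line ordered by its median (black bars), with the number of tested members in brackets. Red and blue points are members called higher and lower, dotted lines mark 4-fold, and the medians run from -8.85 for luminal markers to 2.65 for laminins.

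Of 15 listed genes for epidermal growth factor ligands and ERBB receptors, all tested, 6 were higher in DU145, 2 lower and 7 not called, with a median of 1.76 (1.61 with bounds). EREG, which encodes epiregulin, stood at 0, 131 and 5.36 CPM in LNCAP, DU145 and PC3 and was at least 681-fold higher, from chromosome 4 (74365143 to 74388751). TGFA was 12.4-fold higher (9.57 to 16.3; 3.97, 49.2 and 76.3 CPM), and NRG1, a neuregulin gene, at least 32.3-fold higher with no counts in LNCAP or PC3. NRG2 and BTC were also higher, whereas the ligand gene EGF was 7.67-fold lower (5.74 to 10.5; 25.5, 3.32 and 6.67 CPM). Among the receptors, EGFR was 4.76-fold higher (4.52 to 5.02; 108, 516 and 279 CPM) and ERBB3 6.004-fold lower (5.46 to 6.62; 189, 31.4 and 17.1 CPM), while ERBB2 was not called (191 and 139 CPM).

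Genes induced by or damping MAP kinase signalling, downstream of such receptors, were called in both directions, 8 higher and 4 lower of 18 tested (median 1.80). IER3, an early response gene, was 597-fold higher from 3 LNCAP counts (204 to 2897), with 115 CPM in DU145 and 233 CPM in PC3. EGR1, an early growth response factor gene, was 35.3-fold higher (26.5 to 48.1; 3.07, 108 and 0.262 CPM). DUSP6, an ERK phosphatase gene, was 54.2-fold higher (27.3 to 126), and 37.1% of its longest transcript is shared with an overlapping gene model. The sprouty genes, which encode inhibitors of receptor signalling, were divided. SPRY2 was 19.9-fold higher (12.7 to 32.9), SPRY1 19.4-fold lower (14.8 to 25.9) and SPRY4 6.60-fold lower (5.52 to 7.93). DUSP2, a phosphatase gene, was 121-fold lower (65.6 to 253; 77.3, 0.638 and 0.196 CPM).

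Cytokine and receptor genes were mostly higher where called, with 15 of 38 tested (46 listed) higher and 5 lower (median 1.52, or 1.58 with bounds). OSMR, the oncostatin M receptor gene, stood at 12.2, 714 and 91.5 CPM in LNCAP, DU145 and PC3 and was 58.7-fold higher (50.9 to 68.1). IL31RA, which encodes a chain that pairs with it, was 142-fold higher from 3 LNCAP counts (48.4 to 693; 27.3 CPM in DU145). The ligands LIF and IL11 of the same cytokine family were 19.2-fold (15.8 to 23.5) and 14.4-fold higher (9.43 to 23.04), and IL6 was at least 27.9-fold higher (0, 5.36 and 0.523 CPM). CSF1, the macrophage growth factor gene, was 24.9-fold higher (20.6 to 30.4; 7.10, 177 and 3.34 CPM), with PC3 near LNCAP. TNFSF15 was 721-fold lower from 1 DU145 count (129 to 28504; 46.0 CPM in LNCAP), and TNF at least 13.03-fold lower.

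The TGF-beta superfamily had 12 genes higher and 5 lower of 36 tested (39 listed, median 0.43, or 0.45 with bounds). The ligand gene TGFB1 was 935-fold higher from 2 LNCAP counts (258 to 7725; 0.128, 120 and 105 CPM in LNCAP, DU145 and PC3), and TGFB2 53.4-fold higher (31.0 to 101). Its receptor gene TGFBR2 was 129-fold higher (86.5 to 202; 1.54, 198 and 140 CPM), and SMAD3, which carries the signal, 8.41-fold higher (7.65 to 9.27). The ligand, receptor and signal carrier genes named here were higher in the DU145 library, while 19 of the 36 tested genes of the list were not called. On the bone morphogenetic protein side the values were mixed. BMP4 was 89.6-fold higher (38.1 to 277), while the receptor gene BMPR1B was 12.3-fold lower (8.09 to 19.5), SMAD9 13.1-fold lower (10.5 to 16.6) and the pseudoreceptor gene BAMBI 40.2-fold lower (28.9 to 57.6). GDF15, a stress-induced ligand gene on chromosome 19 (18374731 to 18389176), stood at 1157, 0.957 and 371 CPM and was 1208-fold lower (732 to 2159).

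Genes of innate sensing were called 8 higher and 4 lower of 29 tested (34 listed, median 0.44). CGAS, the cytosolic DNA sensor gene, was 576-fold higher from 1 LNCAP count (103 to 22776), with 36.8 CPM in DU145 and 19.7 CPM in PC3. TMEM173, the gene of its partner STING, was 9.48-fold higher (6.57 to 14.1; 2.05, 19.4 and 25.4 CPM), and IFI16 54.9-fold higher from 2 LNCAP counts (14.8 to 459). GSDMD, which encodes a pore-forming gasdermin, was 178-fold higher (81.7 to 487; 0.384, 68.5 and 117 CPM). Interferon-induced genes were called both ways, with MX1 5.14-fold higher (3.52 to 7.71) and OAS1 10.2-fold lower (6.30 to 17.7). Among genes of cell death, 5 of 28 tested (34 listed) were higher and BCL2 lower at 4.82-fold (2.99 to 8.12), with a median of 0.64. Over all tested genes 13.7% were higher and 12.1% lower. The higher count of cell death genes lay near that share and their lower count below it. The higher count of innate sensing genes lay above that share and their lower count near it. MLKL, the effector of necroptosis, was 57.5-fold higher (28.9 to 134; 0.512, 29.4 and 15.2 CPM), GSDME 10.5-fold higher (7.02 to 16.4) and CFLAR, a caspase-8 inhibitor gene, 5.01-fold higher (4.60 to 5.48).

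The genes lower in DU145 with the largest bounds included several best known from neurons. SYT4, a synaptotagmin gene of vesicle release, was at least 2394-fold lower, with 458 CPM in LNCAP and no counts in DU145 or PC3. GPR158, an orphan receptor gene of neurons, was at least 2300-fold lower (440 CPM, with no counts elsewhere), and NETO1, which encodes a partner of glutamate receptors, at least 1887-fold lower (361, 0 and 0.262 CPM in LNCAP, DU145 and PC3). PEG3, an imprinted zinc finger gene, was 4324-fold lower from 2 DU145 counts (1197 to 35710; 552, 0.128 and 0.327 CPM), and 12.9% of its exon bases overlap ZIM2. DU145 and PC3 were both at or near 0 in these 4 genes.

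GUCY1A1, a subunit of the nitric oxide receptor, was at least 1475-fold lower (282, 0 and 0.523 CPM in LNCAP, DU145 and PC3). KLK4, a prostate kallikrein, was at least 955-fold lower (183, 0 and 0.0654 CPM). Among the lower genes with high CPM in LNCAP was ABHD2, a lipid hydrolase gene, at 2109 CPM in LNCAP, 57.8 CPM in DU145 and 105 CPM in PC3, which was 36.5-fold lower (34.1 to 39.0). SPON2, a secreted matrix protein gene, was 260-fold lower (214 to 320; 1643, 6.32 and 1.05 CPM). AMD1 and SORD, genes of polyamine and of sorbitol metabolism, were 8.92-fold (8.55 to 9.31) and 10.7-fold lower (10.2 to 11.3), and SORD has a pseudogene copy. LIMCH1, a gene of actomyosin contraction, was 17.6-fold lower (16.6 to 18.8). For GDF15, ST3GAL1 and PEG3 the LNCAP level was the highest of the libraries, as it was in these genes.

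Of 1240 tested transcription factor genes, by the family column of the deposited tables, 177 (14.3%) were higher and 159 (12.8%) lower, close to the shares over all genes. The families differed in direction. Homeobox genes had 45 of 110 (40.9%) higher and 20 (18.2%) lower, against 13.7% and 12.1% of all tested genes. Only 110 of 193 homeobox genes passed the filter, some of them through DU145 alone, which raises the higher share. With a filter of 5 CPM, 24 homeobox genes were higher and 12 lower, beside 1624 and 1198 of all genes. The number of homeobox genes tested at that filter is not given, so these counts do not show whether the higher share holds. Zinc fingers of the C2H2 class, the largest family, had 44 of 568 (7.75%) higher and 80 (14.1%) lower, with a median log2 ratio of -0.50. Forkhead genes had 8 of 34 higher and 9 lower, basic helix-loop-helix genes 8 of 54 higher and 4 lower, and ETS genes 5 of 21 higher and 4 lower. The lower forkhead genes include FOXD4, FOXD4L3, FOXD4L4 and FOXD4L5. At least 81.8% of the longest transcript of each matches other genes, so they can share reads and are not independent. Some higher forkhead genes, such as FOXE1, passed the filter only through DU145, as for homeobox genes. None of 10 E2F genes was called.

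**Figure D3:**
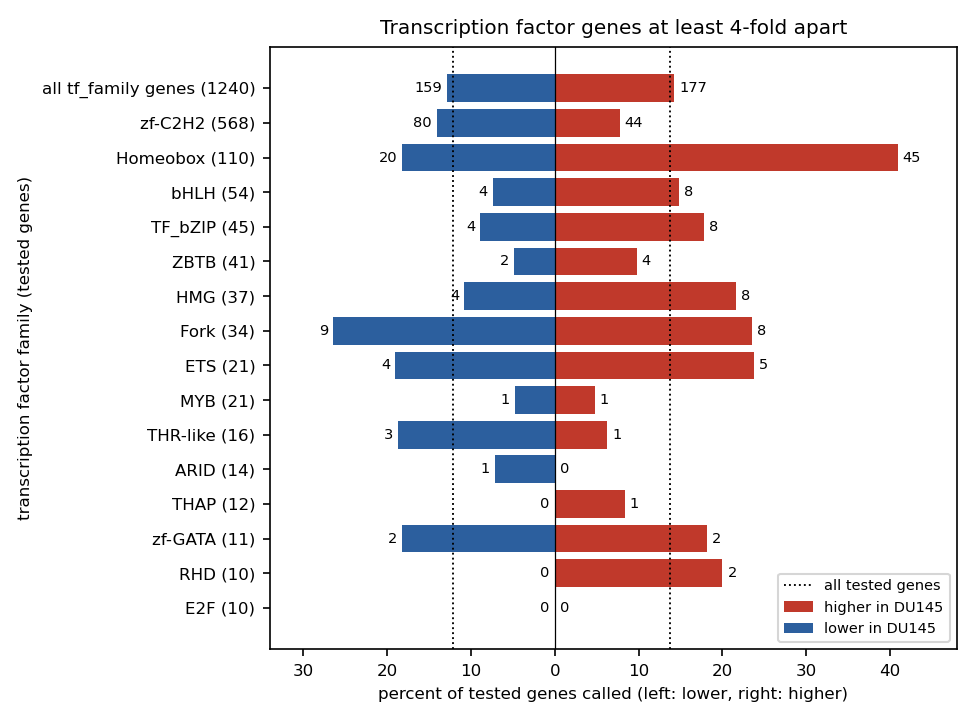
Percent of tested genes called higher (red, right) and lower (blue, left) in DU145 against LNCAP for each transcription factor family with at least 10 tested genes, with the tested genes in brackets and the called genes at the bar ends. Dotted lines give the shares over all tested genes, 13.7% higher and 12.1% lower; the Homeobox bar reaches 40.9% on the right.

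The HOX clusters accounted for many of the higher homeobox genes. In the A cluster on chromosome 7, 8 of 10 tested genes were higher and none lower (median 3.54), and in the B cluster on chromosome 17, 8 of 9 were higher and HOXB13 was lower. The C cluster had 4 of 9 higher and 2 lower, and all 3 tested D genes were higher. Some of these genes, among them HOXB7, HOXB8, HOXC5, HOXC11, HOXD1 and HOXD9, passed the filter only through DU145. That raises the higher counts, which are therefore not read as a trait of the clusters. The D genes had no counts in LNCAP and stood low in DU145, with HOXD9 at 4.98, HOXD1 at 1.08 and HOXD8 at 0.511 CPM. HOXD1 shares 58.1% of its exon bases with another gene model. HOXA3 stood at 0, 31.0 and 12.0 CPM in LNCAP, DU145 and PC3 and was at least 162-fold higher, and HOXB7 was at least 125-fold higher (0, 24.1 and 0.850 CPM). The cluster sums did not all go the same way. The A genes summed to 6.33 CPM in LNCAP, 85.6 CPM in DU145 and 131 CPM in PC3. The B genes summed to 338, 126 and 480 CPM in the same order, of which HOXB13 took 329, 0 and 387 CPM. The C genes summed to 70.0, 55.5 and 30.0 CPM. HOX genes overlap each other and antisense transcripts in part, and their single values are uncertain where strand was not used in counting. Outside the clusters 23 of 80 homeobox genes were higher and 17 lower.

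NKX2-1, which encodes the thyroid and lung regulator TTF-1 on chromosome 14 (36516392 to 36521149), had 1 count in LNCAP, 2724 in DU145 and none in PC3. At 174 CPM in DU145 it was 2718-fold higher (487 to 107383). FOXE1, a forkhead gene of the thyroid, stood at 37.8 CPM in DU145 without a count in the other libraries, at least 197-fold higher. PAX8, which acts with them in the thyroid, was 4.99-fold higher from 2 LNCAP counts and 10 DU145 counts (1.06 to 46.8). It stood at 0.128, 0.638 and 6.87 CPM in LNCAP, DU145 and PC3. In the other direction the homeobox gene IRX4 was 54.6-fold lower (26.2 to 137) and ISX at least 39.4-fold lower.

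**Figure D4:**
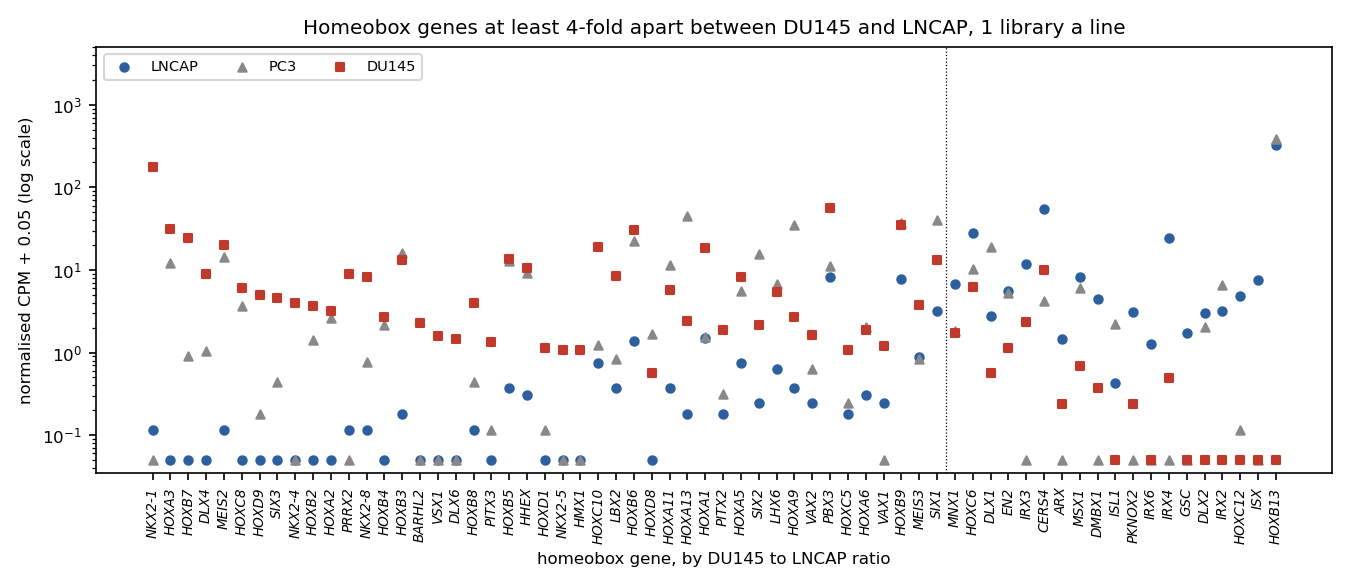
Normalised CPM plus 0.05 (vertical, log scale) of homeobox genes called apart between DU145 and LNCAP, ordered by ratio, for LNCAP (circles), PC3 (triangles) and DU145 (squares), 1 library a line. The 45 genes left of the dotted line were higher in DU145, from NKX2-1 at 174 CPM, and those on the right were lower.

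ETS factors, some of which act downstream of MAP kinase signalling, were called in both directions. ETV5 was 187-fold higher in DU145 (90.5 to 466; 0.448, 83.7 and 125 CPM in LNCAP, DU145 and PC3), ETS1 69.0-fold higher (49.5 to 99.4; 2.24, 155 and 193 CPM) and ETV4 35.3-fold higher (20.02 to 68.9). EHF, an epithelial ETS gene, was 1798-fold lower from 3 DU145 counts (615 to 8724; 344, 0.191 and 27.7 CPM), and ETV1 1799-fold lower from 2 DU145 counts (498 to 14858; 230, 0.128 and 77.8 CPM). SPDEF, an ETS gene of secretory epithelium, was 21.4-fold lower (17.3 to 26.7). The Runt family also had members in both directions: RUNX3 was at least 265-fold higher (0, 50.9 and 2.94 CPM), RUNX1 30.9-fold higher (24.8 to 38.9) and RUNX2 9.77-fold lower (7.05 to 13.9).

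Nuclear receptor genes were also called in both directions. NR3C1, the glucocorticoid receptor gene, stood at 0.960, 208 and 74.1 CPM in LNCAP, DU145 and PC3 and was 217-fold higher (131 to 388), while the mineralocorticoid receptor gene NR3C2 was 10.7-fold lower (6.59 to 18.4). The thyroid hormone receptor gene THRB was 9.32-fold lower (7.46 to 11.8). PPARG was 4.83-fold higher (3.67 to 6.44; 4.03, 19.5 and 152 CPM), and its call was lost where the interval had to exclude 4-fold. STAT6, the interleukin-4 signal transducer gene, was 184-fold higher (103 to 370; 0.704, 130 and 53.5 CPM), and STAT4 at least 54.9-fold higher.

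Other regulators with large ratios included BNC1, a basal epithelial zinc finger gene, at least 587-fold higher (0, 113 and 10.2 CPM), ZNF655 at least 420-fold higher (0, 80.5 and 0.131 CPM) and the Notch effector gene HEYL at least 81.8-fold higher (0, 15.7 and 0.262 CPM). ZBTB38, which encodes a methyl-CpG binding protein, was 12.7-fold higher (11.7 to 13.9; 34.9, 444 and 47.8 CPM), with PC3 near LNCAP. Lower in DU145 were the bZIP gene MAF (at least 939-fold) and ZBTB16, the PLZF gene, at least 319-fold lower (61.0 CPM in LNCAP and no counts elsewhere). TBX3, a T-box gene, was 64.5-fold lower (53.5 to 78.4; 461, 7.15 and 82.4 CPM), GATA2, a GATA factor gene, 12.2-fold lower (11.03 to 13.4; 336, 27.6 and 54.1 CPM) and ARID5B 13.4-fold lower (10.8 to 16.7; 78.6, 5.87 and 92.3 CPM). In ARID5B the PC3 level was near that of LNCAP.

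The C2H2 zinc finger genes divided by chromosome, a grouping chosen after the values were seen. Chromosome 19 carries large clusters of these genes, most of which encode DNA-binding repressors with a KRAB domain. Of the 248 tested on chromosome 19, 5 (2.02%) were higher in DU145 and 53 (21.4%) lower, with a median log2 ratio of -1.05. Of the 320 on other chromosomes, 39 (12.2%) were higher and 27 (8.44%) lower, with a median of -0.14. The chromosome 19 genes summed to 5550 CPM in LNCAP, 2865 CPM in DU145 and 4358 CPM in PC3. All protein-coding genes tested on chromosome 19 had a median of -0.18, so the zinc finger genes lay lower than their chromosome. Examples are ZIK1 at least 118-fold lower (22.6, 0 and 0.327 CPM), ZNF728 at least 90.5-fold lower (17.3 CPM in LNCAP and no counts elsewhere) and ZNF350 21.8-fold lower (15.8 to 31.0; 52.9, 2.43 and 9.42 CPM). Some of these genes are near copies of each other, and their single values are uncertain.

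DNA replication genes mostly lay within 4-fold. Of 42 MCM, origin and replication fork genes, all tested, only the polymerase subunit gene POLE2 was called, at 5.13-fold higher (4.43 to 5.97; 13.6, 69.9 and 34.0 CPM), and the list's median was 0.60. Among 25 DNA methylation and Polycomb genes 2 were higher and 2 lower (median 0.17). BMI1, a Polycomb subunit gene, was 7.40-fold higher (6.70 to 8.18; 28.8, 213 and 96.5 CPM), and UHRF1, a cofactor of maintenance methylation, 5.23-fold higher (4.85 to 5.64), with a partly identical gene model elsewhere. BMI1 also shares exons with a read-through model. CBX2 was 14.6-fold lower (11.9 to 18.2; 89.7, 6.13 and 46.1 CPM) and KDM6A, an X-linked histone demethylase gene, 10.7-fold lower (9.60 to 12.0; 233, 21.7 and 60.3 CPM).

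Of 31 tested fatty acid oxidation genes (33 listed) 5 were lower in DU145 and none higher, where 12.1% of all tested genes were lower, so the count lay near the background. The median log2 ratio of the list was -1.05, against -0.0033 over all tested genes. With genes sharing 20% or more of their exon bases left out, there were 3 calls. CPT1A, the gate of fatty acids into mitochondria, stood at 259, 45.2 and 134 CPM in LNCAP, DU145 and PC3 and was 5.72-fold lower (5.28 to 6.20). AMACR, a racemase for branched fatty acids that is used as a prostate cancer marker, was 9.37-fold lower (7.41 to 12.0), with a read-through model that shares its exons. ACAA1, a peroxisomal thiolase gene, was 7.06-fold lower (6.22 to 8.05) and overlaps another gene in part. ETFDH, which passes electrons from this pathway to the respiratory chain, was 4.74-fold lower (4.01 to 5.63). HADHA went the other way without being called, at 187 CPM in LNCAP and 321 CPM in DU145. Mitochondrial genes took 7.97% of counts in LNCAP and 5.60% in DU145, and the part of that difference in these nuclear genes was not tested.

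Eicosanoid and phospholipase genes were also mostly lower where called, with 9 of 22 tested (27 listed) lower and 3 higher (median -0.30). PTGFR, a prostaglandin receptor gene, was at least 508-fold lower (97.3, 0 and 35.7 CPM), ALOX15, a lipoxygenase gene, 837-fold lower from 3 DU145 counts (286 to 4059; 160 CPM in LNCAP) and the prostaglandin-degrading gene HPGD 69.4-fold lower (26.8 to 257). ABCC4, a prostanoid exporter gene, was 6.91-fold lower (6.56 to 7.28; 720, 104 and 58.7 CPM). PTGES, which makes prostaglandin E, was 17.8-fold higher (14.1 to 22.7; 4.86, 86.5 and 5.30 CPM). Aldehyde, alcohol and xenobiotic enzyme genes went both ways, 10 higher and 7 lower of 33 tested (36 listed, median 0.08). CYP1B1 was 1106-fold higher from 1 LNCAP count (198 to 43741; 70.8 CPM in DU145 and none in PC3), and ALDH7A1 840-fold higher from 2 LNCAP counts (232 to 6942; 0.128, 107 and 226 CPM). MAOA, the monoamine oxidase gene, was 46.7-fold lower (40.6 to 54.0; 590, 12.6 and 7 CPM).

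LincRNA genes were called more often than protein-coding genes both ways, and antisense genes mainly in the lower direction. Of annotated genes, 956 of 7629 lincRNA and 1147 of 5583 antisense genes were tested, against 14135 of 19951 protein-coding genes. A low-level gene could pass the filter only through the library where it was high, which raises the share called. The shares are therefore not read as a trait of these classes. Of 14135 tested protein-coding genes 13.3% were higher and 9.99% lower. Of 956 lincRNA genes 215 (22.5%) were higher and 238 (24.9%) lower, and of 1147 antisense genes 156 (13.6%) were higher and 198 (17.3%) lower. Processed pseudogenes had 40 of 465 higher and 79 lower, and snoRNA genes 0 of 20 higher and 3 lower. The lincRNA AL161431.1 on chromosome 13 (109269634 to 109278512) was at least 1141-fold higher (0, 219 and 82.5 CPM in LNCAP, DU145 and PC3), HCG11 at least 265-fold (0, 50.9 and 0.327 CPM) and LINC00857 at least 225-fold. ANXA2P2, 599-fold higher from 2 LNCAP counts (165 to 4953), is a processed copy of ANXA2 and its reads could come from that gene. Lower in DU145 were COLCA1, an antisense gene, at 790-fold (383 to 1965; 353, 0.447 and 0 CPM), and MIR99AHG, a microRNA host gene, at least 252-fold. ST8SIA6-AS1 was at least 260-fold lower. TRGC1, a T cell receptor constant gene that LNCAP reads reached at 187 CPM, was at least 976-fold lower, and TRGC2 is a near copy.

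Along the chromosomes, the median log2 ratio of protein-coding genes was lowest on X, at -0.58 over 505 genes (0.23 for PC3 over LNCAP), and highest on 14, at 0.42 over 460 genes (-0.05 for PC3). In windows of 20 neighbouring tested genes the middle 98% of 13667 medians lay between -1.52 and 1.59. The highest windows held the protocadherin alpha genes on chromosome 5 (140638740 to 141012347, median 5.62), the HOXA genes on chromosome 7 (26291895 to 29990289, 3.54) and S100 and epidermal genes on chromosome 1 (151982915 to 153693992, 2.47). For PC3 over LNCAP the same windows stood at 4.48, 4.14 and 0.68. The lowest held MAGEA genes on chromosome X (149929527 to 152769747, -7.19), kallikreins and zinc finger genes on chromosome 19 (50776141 to 51986856, -3.17) and protocadherin beta and gamma genes on chromosome 5 (141172619 to 141512981, -2.94).

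Protocadherins are cell recognition proteins whose 3 gene clusters lie side by side on chromosome 5, and the clusters differed in direction. All 14 tested alpha genes were higher in DU145, with sums of 0.704 CPM in LNCAP, 77.9 CPM in DU145 and 99.4 CPM in PC3. Of 15 beta genes 5 were lower and none higher, and of 20 gamma genes 11 were lower and none higher, with gamma sums of 139 CPM in LNCAP and 51.2 CPM in DU145. Alpha genes share their last exons with each other, as do gamma genes, so single values are uncertain and the members are not independent.

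Runs of neighbouring genes that were silent in 1 library and present in the other were also listed, requiring at least 3 tested protein-coding genes in a row at 3 counts or fewer in one and 1 CPM or more in the other. There were 14 runs low in DU145, with 59 genes, and 10 low in LNCAP, with 44 genes. The promoters of 4 genes picked from the LNCAP-low runs, each with an entry in the RefSeq promoter table, are shown as examples. That neighbours were present together in DU145 follows from how the runs were defined. Each sequence is 300 bases on GRCh38.p14, from 250 bases before to 50 after the RefSeq start, all on the minus strand and written 5′ to 3′, with CpG dinucleotides (CG, the site of DNA methylation) in capitals. NKX2-1 is at chr14:36520183-36520482, NKX2-8 at chr14:36582565-36582864, SLFN11 at chr17:35373572-35373871 and SLFN12 at chr17:35433125-35433424.
NKX2-1: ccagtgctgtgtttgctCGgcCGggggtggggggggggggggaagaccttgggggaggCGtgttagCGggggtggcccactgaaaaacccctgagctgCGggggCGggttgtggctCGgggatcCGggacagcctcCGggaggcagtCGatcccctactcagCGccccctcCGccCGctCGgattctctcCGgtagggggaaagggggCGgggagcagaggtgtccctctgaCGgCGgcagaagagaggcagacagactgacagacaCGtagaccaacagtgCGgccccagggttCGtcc
NKX2-8: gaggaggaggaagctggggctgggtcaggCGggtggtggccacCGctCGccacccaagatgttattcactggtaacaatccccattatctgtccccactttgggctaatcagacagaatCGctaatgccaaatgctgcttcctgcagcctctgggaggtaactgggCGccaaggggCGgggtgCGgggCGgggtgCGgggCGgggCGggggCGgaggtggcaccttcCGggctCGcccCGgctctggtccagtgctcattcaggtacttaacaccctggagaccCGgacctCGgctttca
SLFN11: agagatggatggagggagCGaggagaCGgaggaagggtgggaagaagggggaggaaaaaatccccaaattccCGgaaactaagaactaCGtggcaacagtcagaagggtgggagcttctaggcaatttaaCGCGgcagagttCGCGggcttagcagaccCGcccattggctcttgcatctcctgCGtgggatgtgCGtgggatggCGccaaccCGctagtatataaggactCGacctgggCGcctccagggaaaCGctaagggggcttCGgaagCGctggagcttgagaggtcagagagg
SLFN12: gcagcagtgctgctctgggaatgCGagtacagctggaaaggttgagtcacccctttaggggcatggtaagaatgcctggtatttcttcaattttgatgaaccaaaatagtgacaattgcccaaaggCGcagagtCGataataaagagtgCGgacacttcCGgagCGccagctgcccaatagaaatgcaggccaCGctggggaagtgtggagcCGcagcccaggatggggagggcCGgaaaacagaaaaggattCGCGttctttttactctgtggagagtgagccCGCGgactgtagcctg
They hold 21, 17, 18 and 13 CpG sites. RefSeq lists 27303 such promoters, of which 95.8% hold at least 1 site, with a median of 14. Methylation was not measured.

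The Schlafen genes on chromosome 17 formed such a run. Schlafen proteins restrict growth and viral replication, and SLFN11 also sensitises cells to DNA-damaging drugs. SLFN11 (35350305 to 35373701) had 0 counts in LNCAP, 1504 in DU145 and 298 in PC3, at least 500-fold higher in DU145. SLFN13 had 0, 1033 and 93 counts, SLFN12 had 0, 547 and 0, and SLFN12L had 0, 24 and 0. The flanking gene SLFN5 was expressed in all 3 libraries, at 76.7, 33.3 and 96.9 CPM in LNCAP, DU145 and PC3. The silence in LNCAP thus stopped at SLFN5 on that side.

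Around NKX2-1, SFTA3 had 0, 372 and 0 counts in LNCAP, DU145 and PC3 and NKX2-8 had 1, 129 and 11. About 49.8% of SFTA3's longest transcript matches another gene model. The neighbours MBIP and PAX9 stood at 13.5 and 13.9 CPM in LNCAP and at 63.0 and 25.1 CPM in DU145. Metallothioneins bind zinc and copper, and MT1E, MT1M and MT1A on chromosome 16 had no counts in LNCAP. MT1E had 1522 counts in DU145 and 1 in PC3, at least 506-fold higher, and MT2A beside the run was 7.92-fold higher (7.19 to 8.74; 29.9, 237 and 123 CPM). MT1G went the other way, with 7.16 CPM in LNCAP and none in DU145 or PC3. Of 7 tested MT1 and MT2 genes 4 were higher and 1 lower. MT1F was among those not called (0.704 CPM in LNCAP and 2.23 CPM in DU145). Glutathione transferase genes GSTM4, GSTM2 and GSTM1 on chromosome 1 had no counts in LNCAP and 192, 54 and 241 in DU145, while the next gene GSTM3 was not called (90.3 and 25.3 CPM). GSTM1 shares most of its sequence with GSTM2. FBXO17 and FBXO27, genes for sugar-recognising ubiquitin ligase subunits on chromosome 19, stood at 59.7 and 46.1 CPM in DU145, against 0 and 0.192 CPM in LNCAP. Of the CXC chemokine run on chromosome 4, CXCL2 was the highest in DU145, at 17.4 CPM.

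**Figure D5:**
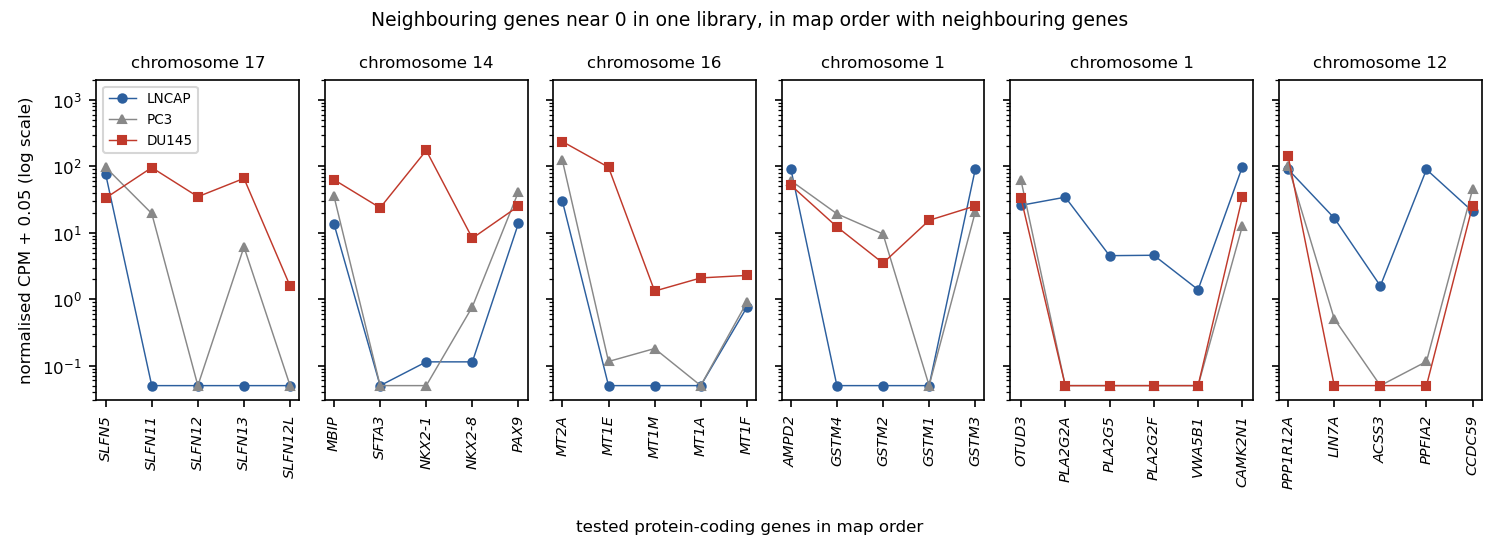
Normalised CPM plus 0.05 (vertical, log scale) of tested protein-coding genes in map order for 4 runs near 0 in LNCAP and 2 runs near 0 in DU145, with neighbouring tested genes, in LNCAP (circles), PC3 (triangles) and DU145 (squares). SLFN11 to SLFN12L sit at 0 counts in LNCAP while SLFN5 beside them does not.

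The longest runs low in DU145 held 8 genes each. The UGT2B glucuronosyltransferases, which inactivate steroids, summed to 115 CPM in LNCAP and were without counts in DU145 and PC3. They lie on chromosome 4 in a run from TMPRSS11E to ODAM (68447449 to 70204576), flanked by YTHDC1 and UTP3 at 86.8 and 28.9 CPM in DU145. The MAGEA and CSAG genes on chromosome X summed to 430 CPM in LNCAP and were without counts in DU145. Members of both families are near copies of each other. A run of secreted phospholipase genes on chromosome 1, PLA2G2A, PLA2G5 and PLA2G2F with VWA5B1, had 699 counts in LNCAP and none in DU145 or PC3. On chromosome 12, PPFIA2, which encodes a synaptic scaffold protein, was at least 469-fold lower, and LIN7A at least 86.9-fold. The prostate genes PRAC1, PRAC2 and HOXB13 on chromosome 17 form another run with TTLL6, which ends at HOXB9, a gene 4.47-fold higher in DU145 (3.67 to 5.49). Within the B cluster, HOXB13 was thus lower at one end, while the genes from HOXB2 to HOXB9 were higher.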

How the data were processed

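RNA was sequenced from 1 library each of the LNCAP, DU145 and PC3 lines. Read counts per gene and FPKM values (a level scaled by gene length and library size) were deposited by the authors. Cufflinks 2.1.1, Cuffdiff 2.1.1, TopHat2 2.0.9 and Bowtie2 2.0.6 are named, without their roles, per the submitters' processing notes. Which tool counted the reads, whether by strand and on which build, is not given in the sources used here. The coordinates of all 58735 genes match GENCODE 29 on GRCh38. Without strand, reads of overlapping genes on opposite strands cannot be told apart.

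Genes with 1 CPM in at least 1 library were kept. Counts were scaled by TMM (edgeR 4.0.16, R 4.3.3), with factors of 1.016 for LNCAP, 0.998 for PC3 and 0.987 for DU145. The ratio of DU145 to LNCAP has an exact 95% interval (Clopper-Pearson, conditional on the sum of both counts), computed with scipy 1.17.1 in Python 3.11.15 with numpy 2.4.6 and pandas 2.3.3. A floor of 3 counts corresponds to 0.195 CPM in LNCAP and 0.189 CPM in DU145. The call of ratios was tested on simulated data. DESeq2 1.42.0 size factors were an alternative, and figures were drawn with matplotlib 3.10.9. Near copies are other genes matching at least 95% identical over at least 100 bases (BLAST 2.17.0).

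Genes were named by rule: the 10 called genes with the largest near interval bound each way, the 8 with the highest CPM, 4 non-coding genes, members of 30 lists, transcription factor families and runs. The comparison, its members and the lists were chosen with earlier results of these data known, and genes that those results had singled out were mostly passed over. The sets by HOX, protocadherin, Schlafen, metallothionein and glutathione transferase family and the C2H2 genes by chromosome were added after the values were seen. A check of promoter class was void, because 78.5% of the protein-coding genes had a RefSeq promoter. Alternatives changed the scaling, the filter on low counts, the added count, the interval rule, the unit and the fold. Some results are not reported here, and a few genes and 1 list are left out of the figures.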

Additional observations from a re-analysis of the deposited data

How the results depend on the processing

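No paired analysis was possible because each line has 1 library. Of 564 alternative values for counts and sets, 514 lay near the main value, 49 moved and 1 reversed. With a filter of 5 CPM, 1624 genes were higher and 1198 lower. LincRNA calls were then 58 and 69, antisense 50 and 53, Homeobox 24 and 12 and forkhead 4 and 3, with 0 calls in the immune list and 7 in the innate list. With no filter, lincRNA calls were 335 and 391, antisense 268 and 351, and the fibroblast list had 2. With 5 counts added, antisense calls were 98 and 131, 5 forkhead genes were lower, and the endothelial and immune lists had 1 each. Where the interval itself had to exclude 4-fold, lincRNA calls were 123 and 142, antisense 77 and 95, C2H2 lower 49, Homeobox lower 13 and forkhead 4 and 4. The endothelial and immune lists then had 1 each, the fibroblast list 0, and Wnt and Notch 10, with 4 higher and 6 lower, which reversed their balance. With FPKM plus 0.1, forkhead lower was 4 and basic helix-loop-helix lower 2, and the endothelial, fibroblast and immune lists had 1, 0 and 1. At 2-fold 4119 genes were higher and 4169 lower, and at 8-fold 1424 were lower. With 1 CPM required in LNCAP or DU145, chosen after seeing the data, the endothelial list had 1 call. With genes sharing under 20% of exon bases, also chosen after, fatty acid oxidation had 3 calls. Windows of 10 genes ran from -8.83 to 6.61 and of 40 from -2.09 to 2.20. Runs low in LNCAP numbered 6 at 0 counts and 20 at up to 10 counts. Apart from the filters, which change how many genes are tested, the cause was not tested. The median log2 ratio of all genes was -0.0033 as reported and -0.081 at its farthest, with library totals without mitochondrial genes. Of 67 named genes, 3 lost their call under 1 alternative, PPARG and THAP2 at the stricter interval and TSHZ2 by FPKM. The absence of replicates limits every value, and ratios from 3 or fewer counts have wide intervals.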

Other observations

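Genes of amino acid transport and serine synthesis were called 5 higher and 5 lower of 29 tested (31 listed, median log2 ratio -0.02). The large neutral amino acid carrier gene SLC7A5 stood at 7.04 CPM in LNCAP, 842 CPM in DU145 and 643 CPM in PC3 and was 120-fold higher in DU145 (99.2 to 146). SLC7A8, a gene of the same carrier family, went the other way at 102, 0.319 and 0.523 CPM and was 321-fold lower (137 to 990). SLC43A1, another neutral amino acid carrier gene, was 16.5-fold lower (12.9 to 21.6), with 61.4 CPM in PC3 against 68.6 CPM in LNCAP.

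Guidance genes for axons and vessels were called 11 higher and 8 lower of 39 tested (43 listed, median 0.26, or 0.17 with genes lacking counts at their bound). EPHA2, a receptor gene for ephrins, was 16.9-fold higher (14.99 to 19.03; 18.8, 317 and 987 CPM in LNCAP, DU145 and PC3), and the netrin gene NTN4 72.4-fold higher (51.7 to 105). The semaphorin gene SEMA4B was 13.5-fold higher (12.4 to 14.7), while SEMA6A was 49.0-fold lower (34.7 to 71.4; 103, 2.11 and 2.42 CPM). The ligand gene EFNB2 was 18.7-fold lower (14.5 to 24.4). Wnt and Notch pathway genes had 9 higher and 8 lower of 43 tested (48 listed, median -0.20, or -0.22 with bounds). SFRP1, a secreted Wnt inhibitor gene, was 103-fold higher (58.7 to 200; 0.768, 79.0 and 0.654 CPM), and the Notch ligand gene JAG1 12.5-fold lower (10.0 to 15.7; 70.0, 5.62 and 283 CPM).

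Over all tested genes 13.7% were higher and 12.1% lower, together 25.8%. Complement genes had 4 higher and none lower of 14 tested (16 listed, median 0.93), led by the inhibitor gene SERPING1 at least 61.5-fold higher (0, 11.8 and 0.0654 CPM). Autophagy genes had 1 higher and 2 lower of 38 (median -0.48), fewer than that share, the higher being PRKAG2 at 4.23-fold (3.71 to 4.84). Secretory cell genes had 1 higher and 3 lower of 14 tested (16 listed, median -0.73), near that share, among them AGR2, a disulfide isomerase gene, at least 329-fold lower (62.9, 0 and 27.5 CPM).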
